A study of Mus musculus with 71 samples.

Results

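The cytosolic Hsp70 and Hsp110 chaperones are described here by 7 genes, Hspa1a, Hspa1b, Hspa2, Hspa4, Hspa4l, Hspa8 and Hsph1, in whole brains of male mice aged 12 to 13 weeks, from 3 inbred strains (DBA/2J, AKR/J, C57BL/6J). Every probe set that the array platform's annotation assigns to one of these symbols was taken, which gave 20 of 45037 probe sets and 7 of 18193 gene symbols. A probe set is a group of short oligonucleotides on a one-colour Affymetrix expression array, and its value is a log2 signal. Sleep-deprived mice were kept awake for 6 hours and killed at the end of that period, at zeitgeber time (ZT) 0, 6, 12 or 18, where the dark period begins at ZT12. Their controls were home-cage mice of the same strain, sex and age killed at the same times. Deprivation that ended at ZT6 or ZT12 fell in the light period (day), and deprivation that ended at ZT18 or ZT0 fell in the dark period (night). Each array held RNA pooled from 3 mice, with 35 sleep-deprived and 36 control arrays in 24 groups (3 strains, 4 times and both conditions). All groups had 3 arrays (9 mice) except sleep-deprived AKR/J at ZT18, which had 2. Spread between arrays is therefore spread between pools, and the number of arrays limits the precision.

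Hsp70 proteins bind exposed hydrophobic stretches of unfolded polypeptides in a cycle of ATP hydrolysis. J-domain proteins stimulate the hydrolysis, and Hsp110 proteins are themselves Hsp70 relatives that release ADP from their Hsp70 partners and so let a client go. Hspa8 (Hsc70) is the abundant housekeeping form, which also strips clathrin from vesicles at synapses, whereas Hspa1a and Hspa1b are the classical stress-inducible pair. Hsph1 (Hsp105) is the heat-inducible Hsp110, and Hspa4 and Hspa4l are its relatives, grouped here with the constitutive genes. Hspa2 is an Hsp70 known chiefly for its role in male germ cells. Inducible members here are Hspa1a, Hspa1b and Hsph1 (6 probe sets), and constitutive members are Hspa2, Hspa4, Hspa4l and Hspa8 (14 probe sets).

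Promoter windows are shown for the 3 inducible genes, all of whose probe sets rose, and for Hspa4l, a constitutive Hsp110 relative that also rose. The windows are the 250 bases before the annotated start in RefSeq (GRCm38.p6), 5′ to 3′ on the strand of the gene, and capitals mark the 2-unit heat shock motifs GAANNTTC and TTCNNGAA.
Hspa1a, chr17:34972157-34972406, minus strand: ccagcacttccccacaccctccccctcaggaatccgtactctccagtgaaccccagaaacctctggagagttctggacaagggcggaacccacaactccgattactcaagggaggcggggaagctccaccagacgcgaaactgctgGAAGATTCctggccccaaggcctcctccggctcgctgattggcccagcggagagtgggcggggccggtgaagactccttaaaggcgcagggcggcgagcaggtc
Hspa1b, chr17:34959239-34959488, minus strand: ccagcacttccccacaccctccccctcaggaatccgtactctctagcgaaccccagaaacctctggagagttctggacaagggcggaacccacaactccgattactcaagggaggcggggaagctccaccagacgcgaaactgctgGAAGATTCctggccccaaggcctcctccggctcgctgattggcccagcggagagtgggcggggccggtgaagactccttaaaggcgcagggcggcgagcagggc
Hsph1, chr5:149636337-149636586, minus strand: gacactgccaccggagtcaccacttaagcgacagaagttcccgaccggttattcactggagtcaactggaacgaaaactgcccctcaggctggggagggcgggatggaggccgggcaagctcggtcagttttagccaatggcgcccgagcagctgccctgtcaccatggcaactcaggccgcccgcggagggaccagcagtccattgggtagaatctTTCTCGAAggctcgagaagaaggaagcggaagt
Hspa4l, chr3:40745363-40745612, plus strand: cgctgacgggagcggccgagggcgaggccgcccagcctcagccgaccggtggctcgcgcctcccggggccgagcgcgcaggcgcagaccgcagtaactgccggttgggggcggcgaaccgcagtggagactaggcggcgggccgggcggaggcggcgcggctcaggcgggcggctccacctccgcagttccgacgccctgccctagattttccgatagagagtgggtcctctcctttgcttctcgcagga
The Hspa1a and Hspa1b windows were identical at 247 of 250 bases and differed by C44T, T47C and T249G, counted from the 5′ end of the window with the Hspa1a base first. Both held 1 match to GAANNTTC, at bases 104 to 97 before the start. The Hsph1 window held 1 match to TTCNNGAA, at bases 33 to 26 before the start, and a second annotated start lies close by, so that the same 8-letter match stands 54 to 47 bases before it. No match was found in the windows of Hspa4l, Hspa4 or Hspa2. Windows were listed for 6 of the 7 genes, all but Hspa8. Both motifs read the same on either strand. Among all 32851 promoter windows of this length, GAANNTTC occurred in 6.69%, TTCNNGAA in 7.17% and at least one of the motifs in 12.8%. The longer 3-unit motifs GAANNTTCNNGAA and TTCNNGAANNTTC, each the reverse complement of the other, were searched as well. Neither was in any of the members' windows, and 0.466% of all windows held one of them. Such matches describe letters and are not evidence of binding.

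The near identity of Hspa1a and Hspa1b extends beyond the promoter, and a probe set named for one may also detect the other, so their split on the array is uncertain. Suffixes _a_at, _s_at and _x_at mark probe sets that can match several transcripts. No probe set's level is set against that of another, because the oligonucleotides differ in affinity. Array medians lay between 5.65 and 5.71, and replicate arrays differed from each other by a root mean square of 0.145 to 0.239 over all probe sets. On 24 bacterial spike-in probe sets, 6 arrays stood apart from the rest: sleep-deprived C57BL/6J ZT0 replicate 3 and ZT6 replicates 1 and 3, control C57BL/6J ZT0 replicate 3, and control AKR/J ZT0 replicate 3 and ZT6 replicate 3. Only 1 strain and time had both conditions among them, with 1 array each, and there Hspa1b (1452318_a_at) differed by 0.97, Hspa1a by 0.34 and Hsph1 (1425993_a_at) by 0.22, sleep-deprived minus control. Of 8 lists of cell type markers, none had more than 1 gene called in either direction after sleep deprivation, and the largest called difference was that of the microglial gene P2ry12, which fell by 0.16. The mean level of 4 neuronal markers was 12.42 to 12.58 in sleep-deprived and 12.44 to 12.60 in control arrays. The mean of 5 pituitary markers varied widely among arrays in both conditions, from 5.21 to 10.47 in sleep-deprived and from 5.20 to 10.81 in control arrays, with no gene called. The median sleep deprivation difference of these 5 genes was -0.39, with adjusted p from 0.505 to 0.708. The part of these differences in the results below was not tested.

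The first question was how far 6 hours of enforced waking changed each chaperone when the 12 differences between sleep-deprived and control groups of the same strain and time were averaged. All 6 probe sets of the inducible genes were higher after sleep deprivation, with fold changes between 1.29 and 2.37, while the constitutive genes were mostly higher by smaller amounts and Hspa2 was not called. In limma at a Benjamini-Hochberg adjusted p under 0.05, 18 of the 20 members were called, 17 of them higher and 1 lower, where 17.3% of all probe sets were called, 8.31% higher and 9% lower. The median difference was 0.88 over the inducible probe sets, 3 of them of Hspa1b, and 0.14 over the constitutive probe sets. With all probe sets of a gene averaged, the differences were 1.21 for Hspa1b, 0.60 for Hspa1a and 0.39 for Hsph1. For the constitutive genes they were 0.30 (Hspa8), 0.13 (Hspa4l), 0.048 (Hspa4) and -0.010 (Hspa2). The 2 classes overlapped, with differences from 0.37 to 1.25 in the inducible and from -0.077 to 0.54 in the constitutive probe sets. In whole brain, a change in RNA per cell and a change in the number of cells that hold it cannot be told apart.

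Hspa1b, one of the stress-inducible Hsp70 pair, ran from 8.37 to 10.60 with a median of 9.50 over sleep-deprived arrays (1452318_a_at), against 7.53 to 9.67 with a median of 8.12 over control arrays. The ranges overlapped, and the highest control values were those at ZT18. The mean difference was 1.15 ± 0.066 (SE), a fold of 2.22, and the adjusted p was 6.85e-21. Both other Hspa1b probe sets gave 1.24 ± 0.063 (1427127_x_at, adjusted p = 4.96e-23) and 1.25 ± 0.073 (1427126_at, adjusted p = 1.87e-20). Hspa1a ran from 6.86 to 8.27 with a median of 7.39 over sleep-deprived arrays, against 6.37 to 7.45 with a median of 6.71 over control arrays. Its difference of 0.60 ± 0.045, a fold of 1.52, had an adjusted p of 2.92e-16. Hsph1, the Hsp110 exchange factor for these Hsp70s, ran from 11.06 to 11.43 with a median of 11.25 over sleep-deprived arrays (1425993_a_at), against 10.53 to 11.18 with a median of 10.88 over control arrays. The control values spread over a wider range than the sleep-deprived values, and only the upper part of the control range met the lower part of the other. The difference was 0.37 ± 0.020, a fold of 1.29, with an adjusted p of 2.78e-22, and the second Hsph1 probe set (1423566_a_at) differed by 0.41 ± 0.023 (adjusted p = 1.02e-21).

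**Figure D1:**
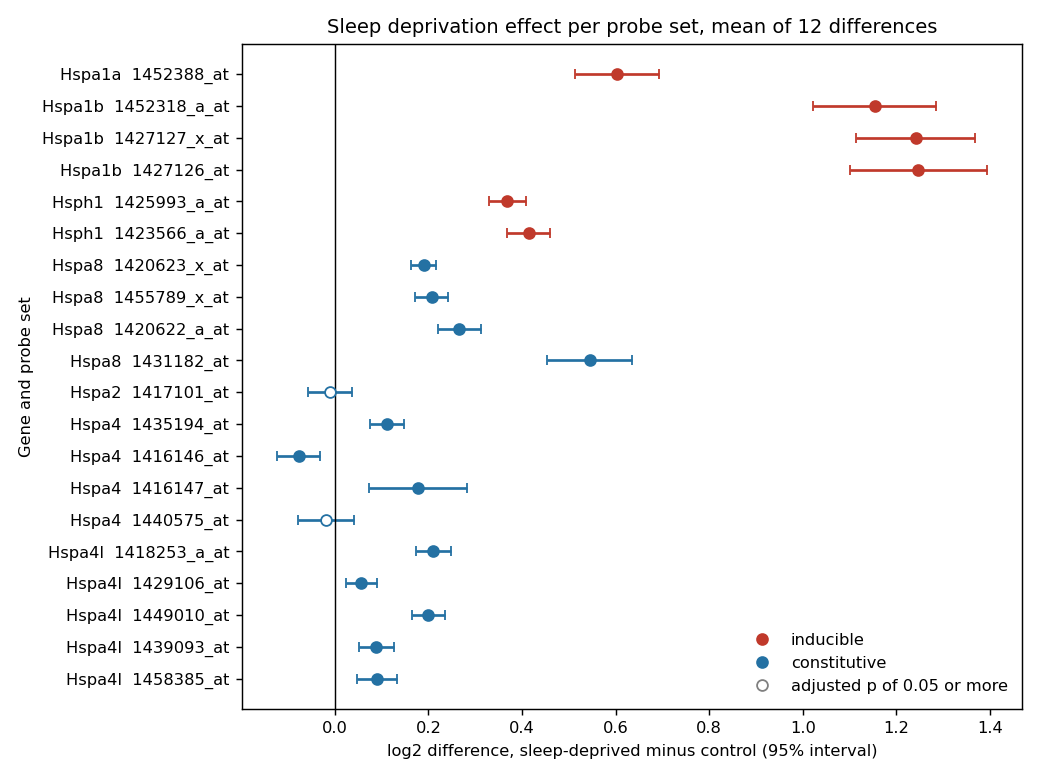
Mean of the 12 differences, sleep-deprived minus control, in log2 units on the horizontal axis, for the 20 probe sets down the page, with 95% intervals as bars. Inducible genes are red and constitutive genes blue, open points have an adjusted p of at least 0.05, and the 3 Hspa1b probe sets lie farthest to the right, between 1.15 and 1.25.

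Among the constitutive genes, Hspa8 was higher by every one of its 4 probe sets. On 1420623_x_at, values ran from 13.35 to 13.63 with a median of 13.46 over sleep-deprived arrays, against 13.10 to 13.48 with a median of 13.25 over control arrays. The difference was small but steady, 0.19 ± 0.014, a fold of 1.14, with an adjusted p of 5.30e-17. Differences of 0.21 ± 0.017 (1455789_x_at) and 0.27 ± 0.023 (1420622_a_at) were similar, whereas 1431182_at, a probe set of low signal, gave 0.54 ± 0.046, a fold of 1.46 (adjusted p = 2.10e-14). On that probe set sleep-deprived arrays ran from 6.20 to 7.40 with a median of 6.72, against 5.43 to 7.33 with a median of 6.05 in control arrays. The size of the Hspa8 change thus depended on the probe set, and its direction did not.

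On lead probe sets, those of highest mean signal, Hspa4l changed by about as much as Hspa8, and Hspa4 by less. With all probe sets of a gene averaged, Hspa4l differed by 0.13 against 0.30 for Hspa8. Hspa4l ran from 9.79 to 10.26 with a median of 10.04 in sleep-deprived arrays (1418253_a_at), against 9.51 to 10.03 with a median of 9.82 in control arrays. Its difference was 0.21 ± 0.018 (adjusted p = 8.97e-14), and all 5 Hspa4l probe sets were called higher, the smallest at 0.057 ± 0.017 (1429106_at, adjusted p = 0.0112). For Hspa4 the 4 probe sets disagreed. On 1435194_at, sleep-deprived arrays ran from 9.95 to 10.30 with a median of 10.18, against 9.83 to 10.24 with a median of 10.09 in control arrays, a difference of 0.11 ± 0.019 (adjusted p = 4.37e-06). A second Hspa4 probe set, 1416147_at, was higher by 0.18 ± 0.052 (adjusted p = 0.0102), 1416146_at was lower at -0.077 ± 0.023 (adjusted p = 0.0106), and 1440575_at was not called at -0.019 ± 0.030 (adjusted p = 0.776). No single direction can be given for Hspa4, and the mean of its 4 probe sets was not called (adjusted p = 0.0774).

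Hspa2 differed least. Its single probe set ran from 7.28 to 7.85 with a median of 7.55 in sleep-deprived arrays, against 7.23 to 7.85 with a median of 7.59 in control arrays, so that the ranges nearly coincided. The difference was -0.010 ± 0.023 (adjusted p = 0.855), with a 95% interval from -0.06 to 0.04. This interval excludes a change of the size seen for Hspa8 1420623_x_at.

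The next question was whether the response depended on when in the day waking was enforced. With the strains averaged, the inducible genes responded most at ZT12 and least at ZT18. Their median difference over 6 probe sets, 3 of them of Hspa1b, was 0.70 at ZT0, 1.03 at ZT6, 1.27 at ZT12 and 0.48 at ZT18. For the 14 constitutive probe sets these medians were 0.13, 0.17, 0.17 and 0.083 in the same order of times. Taken alone, AKR/J and C57BL/6J also had their largest inducible median at ZT12 and their smallest at ZT18. The AKR/J medians were 0.72 at ZT0, 0.90 at ZT6, 1.87 at ZT12 and 0.53 at ZT18. Those of C57BL/6J were 0.81, 0.70, 0.83 and 0.24 in the same order, so that there ZT0 (night) exceeded ZT6 (day). In DBA/2J the inducible medians were 0.57, 1.59, 1.12 and 0.66, largest at ZT6 and smallest at ZT0. With the 3 strains averaged, 12 members were called at ZT0 (1.71% of all probe sets), 14 at ZT6 (10.4%), 14 at ZT12 (9.75%) and 3 at ZT18 (0.0777%).

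Hspa1b (1452318_a_at) at ZT6 ran from 8.37 to 10.01 with a median of 9.44 in 9 sleep-deprived arrays, against 7.53 to 8.20 with a median of 7.84 in 9 control arrays. At ZT12 it ran from 8.92 to 10.60 with a median of 9.44 in sleep-deprived arrays, against 7.75 to 8.05 with a median of 7.94 in control arrays. The conditions did not overlap at either of these times. At ZT0 the lowest sleep-deprived array, at 8.71, lay just under the highest control array, at 8.73, with a median of 9.22 in sleep-deprived and 8.59 in control arrays. At ZT18 the 8 sleep-deprived arrays ran from 9.42 to 10.28 with a median of 10.14, against 9.25 to 9.67 with a median of 9.45 in 9 control arrays, and the ranges overlapped. Its differences were 0.92 at ZT0, 1.41 at ZT6, 1.70 at ZT12 and 0.59 at ZT18, the last with an adjusted p of 0.0654. Sleep-deprived arrays at ZT18 thus had the highest median of the 4 times and the smallest difference from controls.

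**Figure D2:**
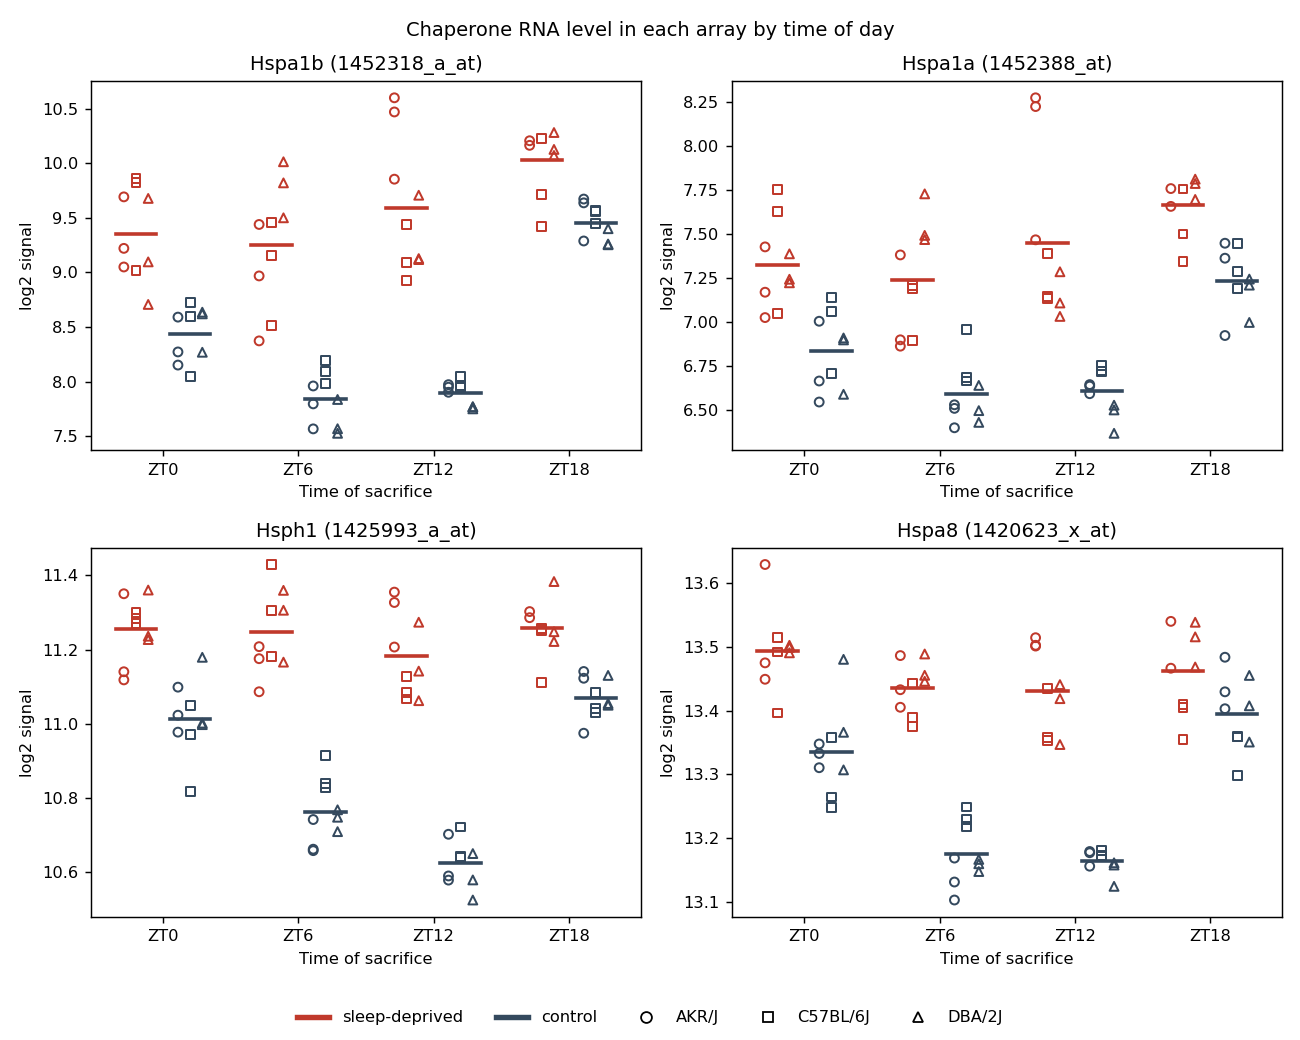
Log2 signal of every array (vertical axis) at ZT0, 6, 12 and 18 (horizontal axis) for 1 probe set each of Hspa1b, Hspa1a, Hsph1 and Hspa8, sleep-deprived in red to the left and control in dark blue to the right, with symbols for strains and bars for means. Control Hspa1b arrays at ZT18 sit between 9.25 and 9.67, above all control arrays at the other times.

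Hspa1a followed the same order, with differences of 0.49 at ZT0, 0.65 at ZT6, 0.84 at ZT12 and 0.43 at ZT18. At ZT12 it ran from 7.03 to 8.27 with a median of 7.28 in sleep-deprived arrays, against 6.37 to 6.75 with a median of 6.63 in control arrays, without overlap. At ZT18 it ran from 7.34 to 7.81 with a median of 7.72 in sleep-deprived arrays, against 6.92 to 7.45 with a median of 7.24 in control arrays, with an overlap. Hsph1 (1425993_a_at) differed by 0.24 at ZT0, 0.48 at ZT6, 0.56 at ZT12 and 0.19 at ZT18. At ZT12 its sleep-deprived arrays ran from 11.06 to 11.35 with a median of 11.14, against 10.53 to 10.72 with a median of 10.64 in control arrays. At ZT18 they ran from 11.11 to 11.38 with a median of 11.25, against 10.97 to 11.14 with a median of 11.05 in control arrays. Its sleep-deprived medians thus stayed within 11.14 to 11.27 at all 4 times, and the control medians varied more.

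The 3 members called at ZT18 were Hspa1a (adjusted p = 0.0275) and both Hsph1 probe sets (1425993_a_at, adjusted p = 0.0231, and 1423566_a_at, adjusted p = 0.00597). These calls rested on few arrays. The call of Hspa1a was lost when any of 9 arrays was left out (highest adjusted p = 0.179, without sleep-deprived AKR/J ZT18 replicate 1), that of Hsph1 1425993_a_at when any of 10 was left out (0.163, the same array), and that of 1423566_a_at without that same array only (0.0564). Without that array, AKR/J keeps 1 sleep-deprived array at ZT18, which is assumed to vary like the other groups.

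Tested directly, the sleep deprivation difference varied among the 4 times for 7 of 20 members, against 1.4% of all probe sets. These were the 3 Hspa1b probe sets, with ranges between the largest and smallest time of 1.11, 1.26 and 1.40 (adjusted p = 0.000373, 8.65e-06 and 2.50e-05), both Hsph1 probe sets, with ranges of 0.365 and 0.305, and the Hspa8 probe sets 1420623_x_at and 1431182_at, with ranges of 0.192 and 0.687. Hspa1a had a range of 0.409 and was not called (adjusted p = 0.225). In the contrast of day minus night deprivation, 10 of 20 members were called, all with the larger difference by day, against 3.08% of all probe sets (1.51% larger by day and 1.58% larger by night). For Hspa1b (1452318_a_at) the day difference exceeded the night difference by 0.802 ± 0.13 (adjusted p = 5.81e-05), for Hsph1 (1425993_a_at) by 0.303 ± 0.039 (adjusted p = 2.77e-07) and for Hspa8 (1420623_x_at) by 0.147 ± 0.027 (adjusted p = 0.000364). Without the 6 arrays apart on spike-ins, 7 members were called. Hspa1a again fell outside the calls at 0.284 (adjusted p = 0.0688). On Hspa4 1416146_at, the probe set with the lower call, the differences were -0.14 at ZT6 (adjusted p = 0.0300) and -0.13 at ZT12 (adjusted p = 0.0468), and they were lost when any of 7 and any of 21 arrays was left out (highest adjusted p = 0.0821, without control AKR/J ZT6 replicate 3, and 0.158, without control AKR/J ZT12 replicate 2).

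Each strain was then taken at each time. Of 240 tests of a member in 1 strain at 1 time, 76 were called, all higher, against 1.76% over all probe sets. This number fell to 39 when each comparison was fitted on its own 2 groups of arrays alone. Of the 20 probe sets, 11 were higher in all 12 differences, as were 1.46% of all probe sets. These included all 6 probe sets of the inducible genes, while Hspa2 was higher in 4 of 12 and the Hspa4 probe sets in 3 to 11. With the times averaged, 12 were called higher in each of the 3 strains, as were 1.3% of all probe sets.

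The widest Hspa1b difference (1452318_a_at) was in AKR/J at ZT12. The sleep-deprived arrays read 10.60, 10.47 and 9.85, against 7.95, 7.97 and 7.90 in control arrays. In DBA/2J at ZT6 the sleep-deprived arrays read 9.50, 10.01 and 9.82, against 7.53, 7.84 and 7.57 in control arrays. The groups were far apart in both, with differences of 2.37 ± 0.23 (adjusted p = 4.39e-11) in AKR/J at ZT12 and 2.13 ± 0.23 (adjusted p = 8.50e-10) in DBA/2J at ZT6. The narrowest difference was in C57BL/6J at ZT18, where the sleep-deprived arrays read 10.23, 9.71 and 9.42, against 9.56, 9.57 and 9.45 in control arrays, and the groups overlapped. On Hspa1b 1427126_at the widest was instead DBA/2J at ZT6, at 2.43 against 2.39 in AKR/J at ZT12. For Hspa1a the widest was AKR/J at ZT12. Hspa1a read 8.22, 8.27 and 7.47 in sleep-deprived AKR/J at ZT12, against 6.64, 6.63 and 6.59 in control arrays. For Hsph1 (1425993_a_at) the AKR/J arrays at ZT12 read 11.35, 11.33 and 11.21 after sleep deprivation, against 10.59, 10.58 and 10.70 in controls. Over all 12 differences Hspa1b (1452318_a_at) lay between 0.26 and 2.37, Hspa1a between 0.23 and 1.36, Hsph1 between 0.15 and 0.67 and Hspa8 (1420623_x_at) between 0.051 and 0.33.

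Calls per strain and time were 3 at ZT0, 12 at ZT6, 12 at ZT12 and 0 at ZT18 in AKR/J, against 0.215%, 2.58%, 1.71% and 0% of all probe sets. In C57BL/6J they were 7, 9, 9 and 0 (0.331%, 7.47%, 2.14% and 0.00222%), and in DBA/2J 0, 12, 12 and 0 (0.111%, 3.63%, 2.94% and 0.00444%). At an unadjusted p under 0.05 limma gave 8 of 20 members in AKR/J at ZT18, 4 in C57BL/6J at ZT18, 10 in DBA/2J at ZT18 and 10 in DBA/2J at ZT0. Several of these counts depended on which arrays were in the fit. With only the 2 groups of a comparison in limma, C57BL/6J at ZT0 had 0 calls in place of 7 (lowest adjusted p = 0.504) and AKR/J at ZT0 had 0 in place of 3 (0.112), while C57BL/6J at ZT6 had 4 and DBA/2J at ZT18 had 2 in place of 0. Without the 6 arrays apart on spike-ins, AKR/J at ZT0 had 1 and C57BL/6J at ZT0 had 7. At C57BL/6J ZT6, 2 of the 3 sleep-deprived arrays and no control array were among the 6 apart on spike-ins, and without the 6 arrays limma gave 0 calls there in place of 9 (lowest adjusted p = 0.0572), with 1 sleep-deprived array assumed to vary like the other groups. The Hspa1b difference there on 1452318_a_at was 1.06 without those arrays, against 0.95 with them. On the other Hspa1b probe sets it was smaller without them, 1.03 against 1.11 (1427127_x_at) and 0.85 against 1.00 (1427126_at).

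**Figure D3:**
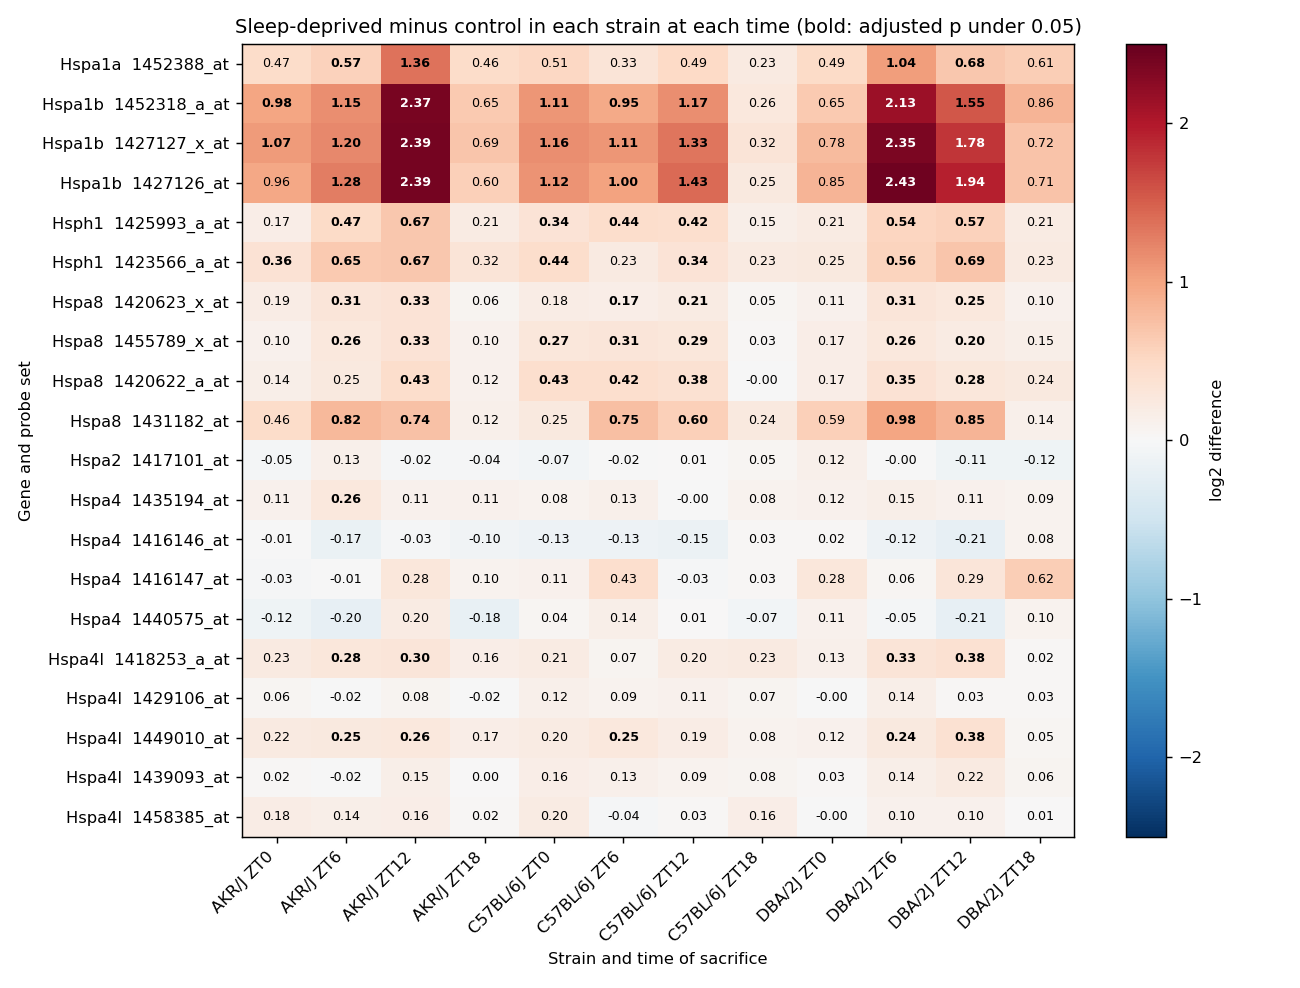
Difference in log2 signal, sleep-deprived minus control, for 20 probe sets (down the page) in each strain at each time (across), with bold numbers where the adjusted p was under 0.05. The Hspa1b probe sets are higher in every column, and no cell of the 3 ZT18 columns is bold.

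With the 4 times averaged, 14 members were called in AKR/J (5.85% of all probe sets), 14 in C57BL/6J (6.45%) and 15 in DBA/2J (6.9%), all higher. For Hspa1b (1452318_a_at) the difference was 1.29 ± 0.12 in AKR/J, 1.30 ± 0.11 in DBA/2J and 0.87 ± 0.11 in C57BL/6J. Hspa1a differed by 0.72 ± 0.079 in AKR/J, 0.70 ± 0.077 in DBA/2J and 0.39 ± 0.077 in C57BL/6J. The larger values in AKR/J and DBA/2J did not hold as a difference between strains after adjustment. The test of strain by sleep deprivation called 0 of 20 members in limma (0.0222% of all probe sets), with 5 at an unadjusted p under 0.05. Pairs of strains gave 0 of 20 members for AKR/J minus C57BL/6J (0.0111%), 0 for DBA/2J minus C57BL/6J (0.00666%) and 0 for DBA/2J minus AKR/J (0.0111%), with 5, 5 and 0 at an unadjusted p under 0.05. The Hspa1b difference in AKR/J minus that in C57BL/6J was 0.42, with a 95% interval from 0.09 to 0.74 (adjusted p = 0.402), and that in DBA/2J minus C57BL/6J was 0.43, from 0.11 to 0.75 (adjusted p = 0.954). These intervals lie above 0 before adjustment over all probe sets, so the strains are shown neither to differ nor to respond alike. For Hsph1 (1425993_a_at) the differences were 0.38 in AKR/J, 0.38 in DBA/2J and 0.34 in C57BL/6J.

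Home-cage controls themselves showed a daily course in these genes. In controls, the chaperones were higher at night, and the contrast of ZT18 and ZT0 minus ZT6 and ZT12 called 17 of 20 members, 16 higher at night and 1 lower, against 12.1% of all probe sets (5.92% higher and 6.14% lower). These contrasts use the same control arrays as the sleep deprivation differences, so the 2 sets of values are not independent and are given only side by side.

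Hspa1b in control arrays (1452318_a_at) had a median of 8.59 at ZT0, 7.84 at ZT6, 7.94 at ZT12 and 9.45 at ZT18. All 9 arrays at ZT18, from 9.25 upward, lay above all control arrays of other times, whose highest value was 8.73. Its night minus day difference was 1.08 ± 0.092 (adjusted p = 1.21e-13), and the range among the 4 times was 1.62 (adjusted p = 3.44e-15). Hspa1a had control medians of 6.90, 6.53, 6.63 and 7.24 at ZT0, 6, 12 and 18, with a night minus day difference of 0.44 ± 0.063 (adjusted p = 4.85e-07). Hsph1 (1425993_a_at) had medians of 11.00, 10.75, 10.64 and 11.05, with a difference of 0.35 ± 0.027 (adjusted p = 5.84e-15), and Hspa8 (1420623_x_at) medians of 13.33, 13.17, 13.17 and 13.40, with a difference of 0.195. All these genes had their highest control median at ZT18. The Hspa1b control median at ZT18 was close to the median of its sleep-deprived arrays at ZT6, 9.44.

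Hspa4l (1418253_a_at) was higher at night by 0.22 in controls, and all 5 of its probe sets were called. The weakest of them, 1429106_at at 0.068, had an adjusted p of 0.0468 and was lost when any of 32 arrays was left out (highest adjusted p = 0.0858). Hspa4 differed between probe sets here too: 1435194_at was higher at night by 0.092 (adjusted p = 0.0104) and 1416146_at lower, at -0.11 (adjusted p = 0.0116). Hspa2 was not called between night and day at 0.02 (adjusted p = 0.785), although the test across the 4 times called it, with a range of 0.16 (adjusted p = 0.0143). That test called 15 of 20 members in controls (11.7% of all probe sets) and no probe set of Hspa4.

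In sleep-deprived arrays alone, the test across the 4 times called 5 of 20 members, against 1.42% of all probe sets. They were Hspa1a, with a range of 0.43 (adjusted p = 0.0158), the 3 Hspa1b probe sets, with ranges of 0.79, 0.70 and 0.75, and Hspa4l 1418253_a_at, with a range of 0.15 (adjusted p = 0.0278). For Hspa1b (1452318_a_at) the range of 0.79 after sleep deprivation stood beside 1.62 in controls. Without sleep-deprived AKR/J ZT18 replicate 1, this count was 3. Neither Hsph1 nor Hspa8 was called among sleep-deprived arrays, while all of their probe sets were called among control arrays; the test of time by sleep deprivation above bears on that difference.

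Strains differed in the home-cage level of a few members, at shares near or below those over all probe sets except between DBA/2J and C57BL/6J. In control arrays, 3 of 20 were called in C57BL/6J against AKR/J (22.9% of all probe sets), 2 in DBA/2J against AKR/J (17.3%) and 7 in DBA/2J against C57BL/6J (23.2%), the last all lower in DBA/2J. Hspa2, which did not pass the test for sleep deprivation, had the lowest adjusted p among these. It ran from 7.25 to 7.70 with a median of 7.49 in 12 DBA/2J controls, against 7.51 to 7.85 with a median of 7.75 in 12 C57BL/6J controls, a difference of -0.26 ± 0.040 (adjusted p = 3.42e-07). In AKR/J controls it ran from 7.23 to 7.64 with a median of 7.55, and C57BL/6J was higher than AKR/J by 0.24 ± 0.040 (adjusted p = 2.02e-06). DBA/2J and AKR/J overlapped over most of their ranges.

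One probe set of Hspa4, 1440575_at, had a median of 5.18 in DBA/2J controls, against 5.36 in C57BL/6J and 5.42 in AKR/J controls. It was lower in DBA/2J by -0.23 against C57BL/6J (adjusted p = 0.000418) and by -0.28 ± 0.052 against AKR/J (adjusted p = 2.56e-05). The other 3 Hspa4 probe sets were not called in DBA/2J against AKR/J. On 1435194_at, C57BL/6J was higher than AKR/J by 0.12 ± 0.032 (adjusted p = 0.00445), which was lost without the 6 arrays apart on spike-ins (adjusted p = 0.0618). The Hspa8 probe set 1431182_at was higher in C57BL/6J, with a median of 6.29 against 6.01 in AKR/J (0.36 ± 0.078, adjusted p = 0.000286), and lower in DBA/2J, with a median of 5.96, than in C57BL/6J (-0.30, adjusted p = 0.00199). The other Hspa8 probe sets were not called in any pair of strains.

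For the inducible pair, DBA/2J controls were lower than C57BL/6J controls on Hspa1a at -0.21 (adjusted p = 0.0391) and on Hspa1b 1427127_x_at at -0.305 (adjusted p = 0.0330) and 1427126_at at -0.36 (adjusted p = 0.0281). Hspa1b 1452318_a_at gave -0.21 and was not called (adjusted p = 0.196). These calls were lost when any of 10, 10 and 4 arrays was left out (highest adjusted p = 0.0894 without control DBA/2J ZT0 replicate 1, and 0.0835 and 0.0715 without control C57BL/6J ZT0 replicate 1). The Hspa4 call on 1435194_at, -0.09 with an adjusted p of 0.0317, was lost when any of 8 was left out (highest adjusted p = 0.0762, without control C57BL/6J ZT18 replicate 3). Hspa4l 1458385_at was higher in DBA/2J than in AKR/J by 0.10 (adjusted p = 0.0488) and was lost when any of 41 arrays was left out (highest adjusted p = 0.128).

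**Figure D4:**
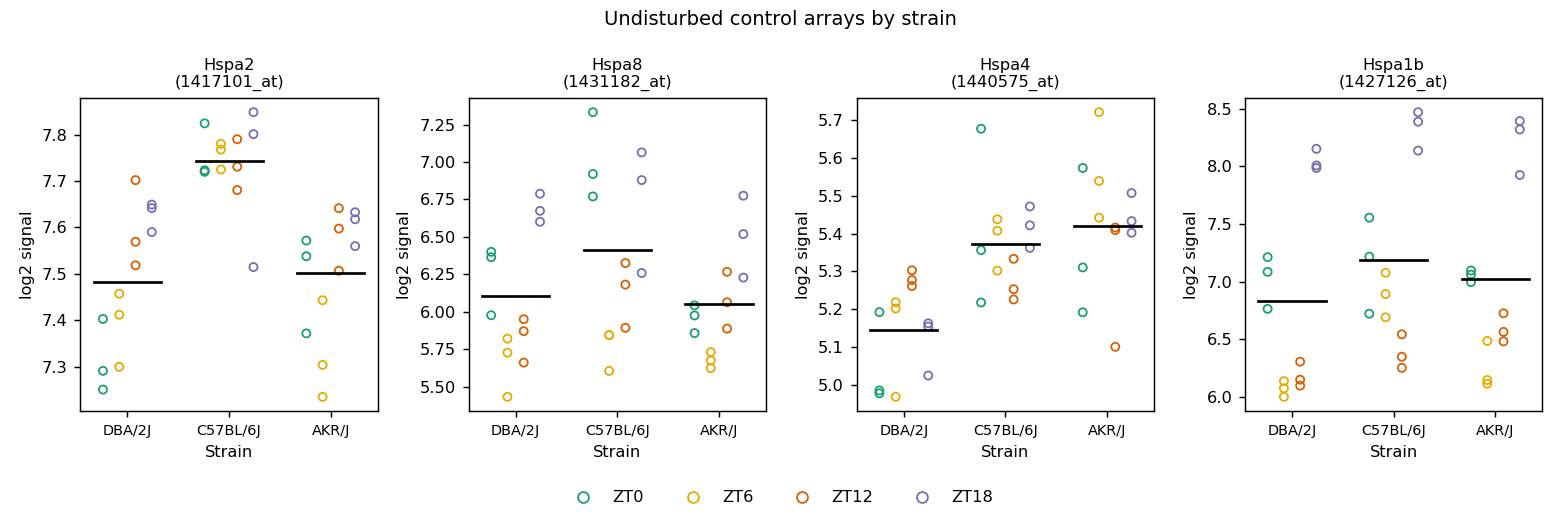
Log2 signal of the control arrays (vertical axis) by strain, DBA/2J, C57BL/6J and AKR/J from left to right, for 1 probe set each of Hspa2, Hspa8, Hspa4 and Hspa1b, with colours for time and bars for means. Hspa2 means are 7.48 in DBA/2J, 7.74 in C57BL/6J and 7.50 in AKR/J, and the Hspa1b panel spreads mainly by time.

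Across the 24 group means, Hspa1a and Hspa1b had the closest course among the genes (Pearson's r = 0.977 between their lead probe sets), followed by Hsph1 and Hspa8 (r = 0.956), Hspa8 and Hspa4l (r = 0.927) and Hsph1 and Hspa4l (r = 0.902). Probe sets of Hspa1a and Hspa1b may each detect both genes, so the first of these values may not describe 2 separate courses. Hspa2 correlated with the lead probe sets of the other genes at only -0.152 to 0.344, and with Hspa4 1440575_at at 0.421. These points share their arrays, and pairs of conditions share strain and time, so the values are descriptions. The 3 Hspa1b probe sets correlated at 0.993 to 0.998 and the 2 Hsph1 probe sets at 0.969. Within Hspa8 the values ran from 0.740 to 0.978, within Hspa4l from 0.623 to 0.952, and within Hspa4 from -0.566 to 0.628, which is the gene whose probe sets also disagreed in direction.

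By the same measure over 24 group means, the 3 genes most like each member were found among all named genes. Hspa1a was most like Dnajb1 (r = 0.938), Dnaja1 (0.922) and Chordc1 (0.920), the first and second of which encode J-domain partners of Hsp70. Hspa1b was most like Chordc1 (0.960), an Hsp90 co-chaperone, Dnaja1 (0.955) and Manf (0.954). Hsph1 was most like Fosl2 and Homer1 (both 0.975) and Ahsa1 (0.971), an activator of Hsp90. Hspa8 was most like Sfpq (0.981), Homer1 (0.971) and Egr3 (0.969). Homer1 and Egr3 are known as genes induced by neuronal activity. Hspa4l was most like Tmem33 (0.970), Prps1l3 (0.952) and Hsp90b1 (0.949), and Hspa4 like Gskip (0.906), Dnaja1 (0.898) and Dlx1as (0.890). Hspa2 was most like Mbp (0.893), which encodes a protein of myelin, Etnppl (0.891) and Itpka (0.876).

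Partners of the Hsp70 cycle were taken as lists, with 1 probe set for each gene. All lists here and in the next paragraph were chosen with earlier results of these data known. Their counts are therefore descriptions and not independent support. Of all probe sets, 8.31% were called higher and 9% lower after sleep deprivation, with a median of -0.002, and the counts of every list below stand beside these shares. Of 13 J-domain genes, 6 were higher and 1 lower after sleep deprivation, with a list median of 0.053. The higher genes included Dnajb1 (0.38 ± 0.028), Dnajb5 (0.35 ± 0.018), Dnaja1 (0.25 ± 0.016) and Dnaja4 (0.20 ± 0.023), and the lower one, named because it was alone, was Dnajc6, the auxilin that works with Hspa8 in clathrin uncoating (-0.051 ± 0.017, adjusted p = 0.0320). Of 8 nucleotide exchange and release factors, Bag3 (0.17 ± 0.031) and Bag2 (0.076 ± 0.024) were higher and Bag4 (-0.088 ± 0.020) and Sil1 (-0.073 ± 0.020) lower. Among 5 adaptors, Stip1, which joins Hsp70 to Hsp90, was higher by 0.29 ± 0.027 and St13 by 0.088 ± 0.021.

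Of 8 Hsp70 relatives outside the member list, 4 were higher and none lower, against 8.31% and 9% of all probe sets, with a median of 0.067. Hspa5 (BiP), the Hsp70 of the endoplasmic reticulum, was higher by 0.67 ± 0.021 (adjusted p = 3.37e-32), and Hyou1, the Hsp110 relative there, by 0.096 ± 0.024. Hspa14 was higher by 0.079 ± 0.020 and Hspa12b by 0.10 ± 0.032. All 9 measured genes of a list of other heat shock genes were higher, with a median of 0.26, among them the small heat shock protein gene Cryab (0.36 ± 0.022), the Hsp90 activator Ahsa1 (0.26 ± 0.014), the collagen chaperone Serpinh1 (0.51 ± 0.033) and Chordc1 (0.47 ± 0.024). Of the 4 measured genes on a list of heat shock factors, limma called none, and their median was -0.019. They were Hsf2, Hsf4, Hsf5 and Hsbp1, the last not itself a factor, and Hsf1 was not analysed here. In controls, 19 of the 47 listed partner genes were higher at night and 2 were lower, against 5.92% and 6.14% of all probe sets, with a median night minus day difference of 0.055. The difference was 0.60 for Hspa5, 0.48 for Chordc1 and 0.34 for Dnajb1, against -0.0014 for Dnajc5. The genes lower at night were Sil1 at -0.14 and Dnajc2 at -0.076, named here after their values were seen.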

How the data were processed

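RNA from whole brains was measured on one-colour Affymetrix arrays, 71 in all, each from a pool of 3 mice. The deposited log2 values were made by the authors with RMA, per the submitters' processing notes; its version is not given in the sources used here. They were used as deposited, as 45037 probe sets after 64 control probe sets were left out. Gene symbols come from the platform annotation, which can be old. Each probe set was fitted with limma 3.58.1 (R 4.3.3) to the means of 24 groups, with 47 residual degrees of freedom, and contrasts were adjusted by Benjamini-Hochberg over all 45037 probe sets and called under 0.05. F tests are given with the range between fitted effects. The lead probe set of a gene is the one with the highest mean level. p-values measure the spread between pools, and array number limits precision. The fit was tested on simulated data. The members and lists were chosen with earlier results of these data known. Members were named throughout, with the 3 genes most like each by correlation of group means. Replicate numbers did not pair the arrays in general: the correlation of deviations over 35 pairs ran from -0.275 to 0.603, with 6 over 0.1, of which 3 were the pairs of C57BL/6J at ZT0. Hsf1, Hsp90ab1 and Hbb-b1 were not analysed here. Other normalizations, filters, blocks and left-out arrays were tried.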

Additional observations from a re-analysis of the deposited data

Results flagged for a closer look

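The sleep deprivation difference was not the same at all times of day for several members, by a test of the difference itself. In the contrast of day minus night deprivation, Hspa1b gave 0.802 (1452318_a_at), 0.905 (1427127_x_at) and 0.995 (1427126_at), and Hsph1 gave 0.303 (1425993_a_at) and 0.217 (1423566_a_at). The 4 Hspa8 probe sets gave 0.147 (1420623_x_at), 0.138 (1455789_x_at), 0.17 (1420622_a_at) and 0.493 (1431182_at). Hspa4l 1449010_at gave 0.122 (adjusted p = 0.0336), which was lost when any of 10 arrays was left out (highest adjusted p = 0.0765, without sleep-deprived AKR/J ZT18 replicate 2) and without the 6 arrays apart on spike-ins (0.154). The calls of Hspa8 1455789_x_at (0.0579) and 1420622_a_at (0.142) were also lost without those 6 arrays.

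In the test across the 4 times, the range of the sleep deprivation difference was 1.11 (1452318_a_at), 1.26 (1427127_x_at) and 1.4 (1427126_at) for Hspa1b, and 0.365 and 0.305 for the Hsph1 probe sets 1425993_a_at and 1423566_a_at. For Hspa8 it was 0.192 (1420623_x_at) and 0.687 (1431182_at). Each of these values rests on the same control arrays as the daily course of undisturbed mice.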

How the results depend on the processing

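The mean sleep deprivation difference called 18 members under every alternative tried, of 19 available with the filter at the median level, which removed Hspa4 1440575_at, and of 20 otherwise: quantile normalization, centring on array medians, the filter, trend and robust moderation, array weights, the replicate block, the spike-in block, an additive model, leaving out the 6 arrays apart on spike-ins, and leaving out each array in turn (18 to 18). Averaging the probe sets within each gene called 5 of 7 genes.

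These counts moved by over 1.5 times, or by less where said. At ZT0, 12 became 8 with only the groups compared, and for day minus night 10 became 7 without the 6 arrays, both by 1.5 times or less. At ZT18, 3 became 5 with the filter, array weights, the spike-in block or without the 6 arrays, and 0 to 5 when 1 array was left out: 0 without sleep-deprived AKR/J ZT18 replicate 1, and 1 without sleep-deprived AKR/J ZT18 replicate 2, C57BL/6J ZT18 replicate 1 or DBA/2J ZT18 replicate 1, or control AKR/J ZT18 replicate 2, C57BL/6J ZT18 replicate 1 or DBA/2J ZT18 replicate 2. Calls in single strains and times were 39 in place of 76 with only the groups compared in the fit, and 71 to 80 with 1 array left out. Time by sleep deprivation gave 11 in place of 7 with array weights, and 7 to 9 with 1 array left out. DBA/2J against AKR/J controls gave 1 in place of 2 under quantile normalization, centring, the filter, array weights, the spike-in block and without the 6 arrays, and 1 to 2 with 1 array left out. DBA/2J against C57BL/6J controls gave 3 to 7, with 3 without control C57BL/6J ZT6 replicate 2 or DBA/2J ZT0 replicate 1 and 4 without control C57BL/6J ZT0 replicate 1 or ZT12 replicate 3. Time among sleep-deprived arrays gave 3 to 6. With 1 array left out, the others were 9 to 11 for day minus night, 16 to 17 for night minus day in controls, 12 to 12 at ZT0, 13 to 14 at ZT6 and at ZT12, 13 to 14 in AKR/J, 12 to 14 in C57BL/6J, 13 to 15 in DBA/2J, 3 to 4 for C57BL/6J against AKR/J controls, 15 to 17 for time in controls, and 0 to 0 for the strain tests. The causes were not tested.

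One value changed sign: Hspa4 1440575_at, not called, was 0.0088 with array weights (adjusted p = 0.880) against -0.019. Over 17645 repeats of single results, 339 lost their call, 247 of them among 15691 that left out 1 array, 51 among 162 fitted on only the groups compared and 24 among 221 without the 6 arrays, where day minus night was no longer called for Hspa8 1420622_a_at (adjusted p = 0.142) and 1455789_x_at (0.0579) or for Hspa4l 1449010_at (0.154). Array number and signal over background limit small differences in single groups of 3.

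With the replicate number as a block, 18 members were called in the mean of 12 differences, 4 at ZT18, 13 at ZT12, 77 in single strains and times and 11 for day minus night. Of 221 single results followed, the block removed 1 call, that of Hspa4 1416146_at at ZT12 (adjusted p = 0.0509). Calls gained under the block lay outside these 221. Over all comparisons the numbers do not pair the arrays, but in C57BL/6J at ZT0 all 3 pairs correlated (0.369, 0.228 and 0.603), and both replicates 3 there were apart on spike-ins. With a replicate block within C57BL/6J ZT0, chosen after seeing the data, all 7 calls there were kept (lowest adjusted p = 0.000502).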
